A study of Rattus norvegicus with 56 samples.

Results

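The genes described here are 10 heat shock proteins and chaperones of the rat kidney, out of 32883 genes in the deposited tables. They are Hspa1b, Hspa8, Hsph1, Dnajb1, Cryab, Hspb1, Hsp90aa1, Hsp90ab1, Hspa5 and Hspd1. They were chosen by symbol in the table for 30 min and carried to the table for 3 h by Ensembl identifier, and all 10 were found in both. The study measured polyA RNA in kidney tubules of male Sprague-Dawley rats soon after the outflow of urine was blocked. Tubules were microdissected as cortical collecting duct (CCD), which carries the principal cells and intercalated cells, or as cortical thick ascending limb (cTAL). In the UUO arm (unilateral ureteral obstruction) the left ureter was tied off with silk close to the renal pelvis. Sham animals had the same anaesthesia, flank incision and exposure of the ureter without the tie, so both arms share the surgery. The groups were CCD UUO, cTAL UUO, CCD sham and cTAL sham, each at 30 min and at 3 h, with 4 numbered replicates a group. A CCD replicate had 2 libraries and a cTAL replicate had 1, which made 48 libraries. The age of the animals is not given in the sources used here, and 8 whole-kidney samples were not analysed here.

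Heat shock proteins bind unfolded or newly made proteins, keep them from clumping and help them fold. HSP70 proteins do this in a cycle driven by ATP: a DnaJ (HSP40) protein hands over the client and starts ATP hydrolysis, and a nucleotide exchange factor such as an HSP110 or BAG protein then releases it. HSP90 finishes the folding of kinases and steroid receptors, the small heat shock proteins hold unfolded proteins without using ATP, and separate chaperones serve the endoplasmic reticulum (ER) and the mitochondrion. Under heat, oxidants or other stress, heat shock factor HSF1 binds heat shock elements, which are inverted repeats of the letters GAA, and raises transcription of the inducible members. In the kidney, the medulla is bathed in high salt and urea, and HSP70 and alpha B-crystallin are well known there as osmotic stress proteins.

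The stretches of promoter below show the letters through which heat shock factor, or the ER stress factors in the case of Hspa5, are known to act on this family. The RefSeq promoter table (build GRCr8) matched 7 of the 10 members. Hspa1b, Cryab and Hsp90aa1 were not matched. The 250 bases before each start were searched for the paired forms of the heat shock unit, GAANNTTC and TTCNNGAA, where N is any base. Each of these reads the same on both strands, so both strands were covered, and matches may overlap each other. For the ER stress response element (ERSE), CCAAT followed by CCACG after 9 bases was searched on both strands. Capitals mark the matched letters, and for Hspa5 the fixed letters of the ERSE.
Hspa8, chr8:50080414-50080513, plus strand: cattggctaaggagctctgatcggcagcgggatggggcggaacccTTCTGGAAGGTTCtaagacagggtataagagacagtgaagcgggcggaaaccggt
Hsph1, chr12:10427254-10427353, plus strand: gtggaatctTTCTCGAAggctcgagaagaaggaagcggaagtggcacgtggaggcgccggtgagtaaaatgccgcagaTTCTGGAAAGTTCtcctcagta
Hspd1, chr9:64084188-64084287, minus strand: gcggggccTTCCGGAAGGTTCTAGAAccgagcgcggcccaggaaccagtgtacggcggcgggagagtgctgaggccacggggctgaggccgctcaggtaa
Hspb1, chr12:26432367-26432466, minus strand: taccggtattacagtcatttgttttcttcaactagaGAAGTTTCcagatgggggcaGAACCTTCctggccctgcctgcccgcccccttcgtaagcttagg
Dnajb1, chr19:41431142-41431241, minus strand: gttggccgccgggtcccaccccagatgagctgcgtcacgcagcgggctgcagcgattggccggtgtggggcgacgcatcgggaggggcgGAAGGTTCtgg
Hspa5, chr3:38452916-38453015, plus strand: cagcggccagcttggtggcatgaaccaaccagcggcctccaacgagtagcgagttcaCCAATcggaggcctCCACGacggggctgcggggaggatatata

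A heat shock pair was found in 5 of the 7 members: 4 matches for Hspa8, with 2 in the stretch shown, 3 each for Hsph1 and Hspd1, 2 for Hspb1 and 1 for Dnajb1. Of the 33469 promoters in the table, 13.5% held either pair, with GAANNTTC in 7.23% and TTCNNGAA in 7.48%. Hsp90ab1, Hspa5 and Hspa1a, the near-identical copy described below, held neither pair in this window. Hspa5 held an ERSE, as did 22 promoters in all, or 0.0657%. In the Hspd1 window the matches run into each other as a single block of alternating TTC and GAA units, and in the Hspa8 and Hsph1 windows a pair of matches shares letters. Of 76 promoters of other chaperone genes, 15 held a heat shock pair and 5 an ERSE. A match of letters is a description of the sequence and does not show that a factor was bound in these tubules.

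All levels are TPM, which count transcripts per length of the gene and as a share of a fixed total, so that levels of different genes can be set side by side within a library. TPM keep no record of sequencing depth, so depth is unknown. As a measure of coverage, each library at 30 min held 8744 to 11916 genes at 1 TPM or more, and each at 3 h held 9585 to 10750. The segments carried their own markers: the summed TPM of 8 principal cell genes was 5503 to 10050 in CCD UUO and 15910 to 18650 in CCD sham replicates at 3 h, against 52.4 to 160 in cTAL UUO and 91.2 to 618 in cTAL sham. Some libraries stood apart. At 3 h, 3 CCD libraries held more than 5000 TPM of Umod, the uromodulin gene of the thick ascending limb. They were library 2 of UUO replicate 4, with 18235 TPM, and library 1 of sham replicates 1 and 3, with 6941 and 7957 TPM. At 30 min, library 2 of CCD UUO replicate 2 had the fewest genes, 8744. Calls that change without these libraries are given with and without them. Marker genes of other cell types also moved with the arms at 3 h. The sum of 9 proximal tubule genes was 758 to 3457 TPM in CCD UUO against 180 to 873 in CCD sham, and 1645 to 4656 in cTAL UUO against 511 to 1271 in cTAL sham. For 4 red blood cell loci the sums were 1494 to 7895 in CCD UUO against 25.4 to 1187 in CCD sham, and 1834 to 11330 in cTAL UUO against 29.8 to 3161 in cTAL sham. Macrophage genes, 10 in number, summed to 1284 to 2217 TPM in cTAL UUO against 2348 to 3628 in cTAL sham. Smooth muscle and fibroblast genes, 8 in number, summed to 18.3 to 78.7 TPM in CCD UUO against 5.68 to 17.1 in CCD sham, and overlapped between arms in cTAL. These markers did not move alike in CCD. Tagln held 3.27 to 44.64 TPM in the UUO libraries against 0 to 5.5 in sham, and Acta2 at most 0.6 TPM in either arm. For 6 endothelial genes the median sum in cTAL was 57.9 TPM in UUO against 193.5 TPM in sham, with overlap. The part of these shifts in the results below was not tested, and in bulk tubules fewer cells of a type and less RNA per cell cannot be told apart.

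At 3 h after the ligation, the inducible HSP70 gene Hspa1b rose in both segments, 2.82-fold in CCD and 9.02-fold in cTAL on the log2(TPM + 1) scale. Also called were falls of the HSP110 gene Hsph1 and the HSP90 gene Hsp90ab1 in CCD, and rises of the small heat shock gene Cryab and the constitutive HSP70 gene Hspa8 in cTAL. A test of the difference between segments called none of the 10. None of the 10 was called in either segment at 30 min. Calls are genes with a Benjamini-Hochberg adjusted p under 0.05 over all genes tested with limma, 4 replicates against 4. All 10 members passed the filter on low values in all 4 comparisons.

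**Figure D1:**
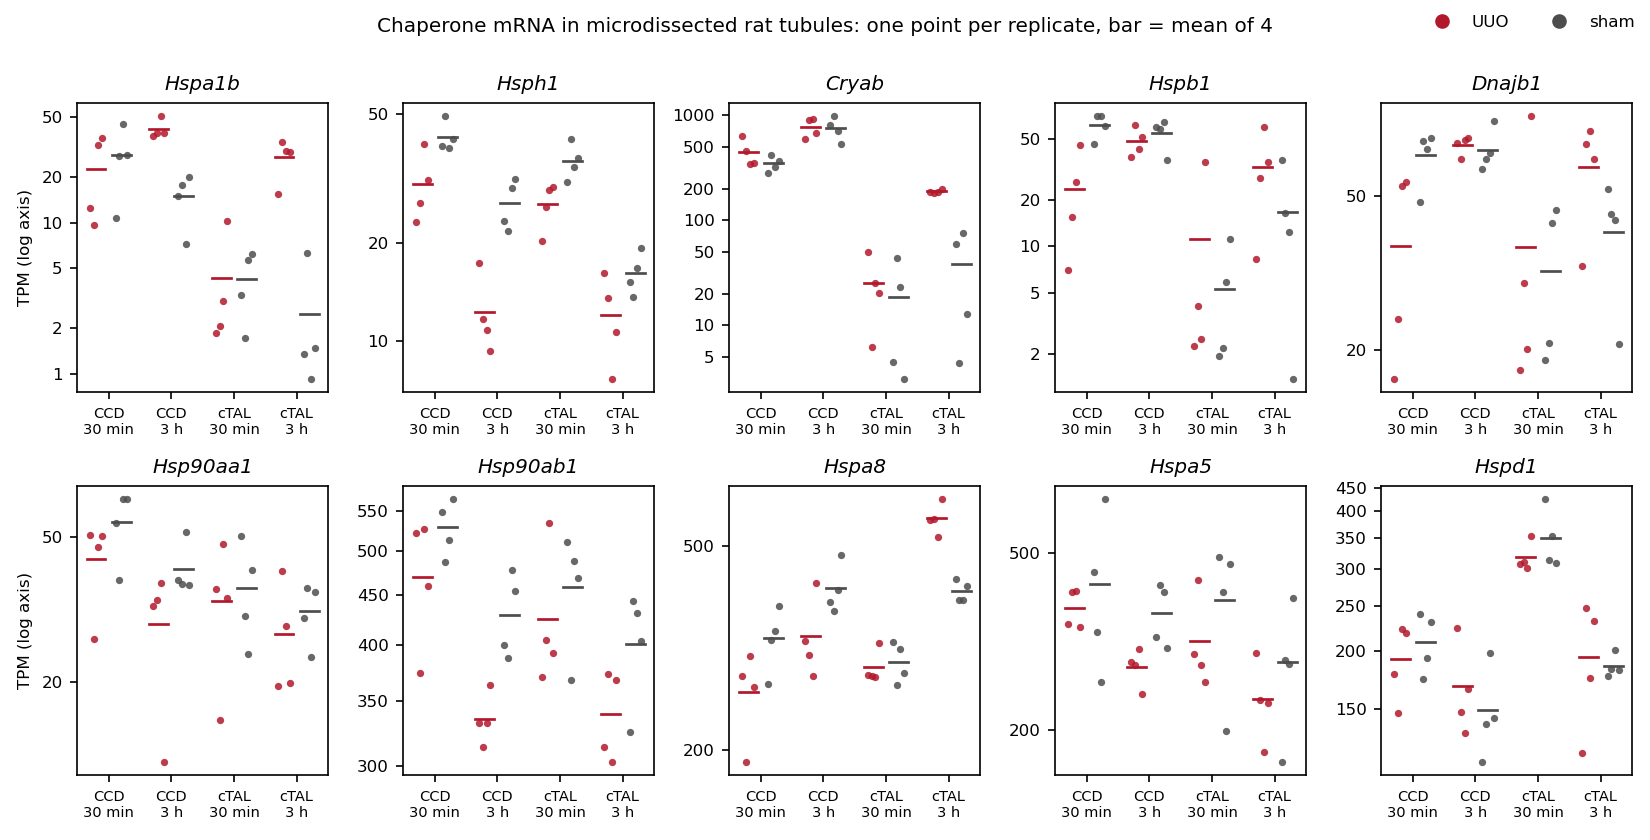
TPM on a log axis for each of the 10 members in every replicate (points), by segment and time, with UUO left of sham and a bar at the mean of 4 replicates. The Hspa1b points of UUO lie above those of sham in both segments at 3 h, and the Hsph1 points of CCD UUO lie below those of CCD sham. Levels are not comparable between 30 min and 3 h, because each time has its own table.

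The counts stood against different backgrounds. In CCD at 30 min 0 of 10 members were called, where 3 of 11369 genes, or 0.0264%, were called. Limma's unadjusted p was under 0.05 for 1789 genes and for 3 members. At the same time in cTAL 0 of 10 members were called, where 1 of 10993 genes, or 0.0091%, was called, with 250 genes and 1 member at an unadjusted p under 0.05. In CCD at 3 h 1 member was called higher, against 5% of genes, and 2 were called lower, against 8.04% of genes. For cTAL at 3 h, 3 of 10 members were called higher, where 4.06% of genes were, and 0 lower, where 7.64% were. Limma's unadjusted p was under 0.05 for 5 members in CCD and for 3 in cTAL at this time. Over all genes it was under 0.05 for 3253 of 10530 in CCD and for 2845 of 10023 in cTAL.

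UUO replicates all lay on one side of all sham replicates for 4 members in CCD at 3 h, 1 higher and 3 lower, where 21.3% of genes had such a gap. In cTAL at 3 h this held for 3 members, all higher, where 19.8% of genes did. At 30 min it held for 1 member in CCD, Hspb1, where 10.9% of genes did, and for 1 in cTAL, Hsph1, where 1.72% did, both lower in UUO. The median log2 change of the 10 members was -0.36 in CCD and -0.12 in cTAL at 30 min, and -0.21 in CCD and 0.24 in cTAL at 3 h. Over all genes tested the medians were -0.31 and -0.07 at 30 min, and -0.14 and -0.12 at 3 h. Because TPM are shares of a fixed total, these shifts of the whole table touch every small change. Rescaling by median of ratios brought the median of all genes to -0.02 in CCD at 30 min, -0.01 in CCD at 3 h and 0.01 in cTAL at 3 h. The calls then split 700 higher to 455 lower in CCD at 3 h, against 526 to 847 as deposited, and 492 to 414 in cTAL, against 407 to 766. Quantile normalization split them 636 to 660 in CCD and 465 to 597 in cTAL.

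**Figure D2:**
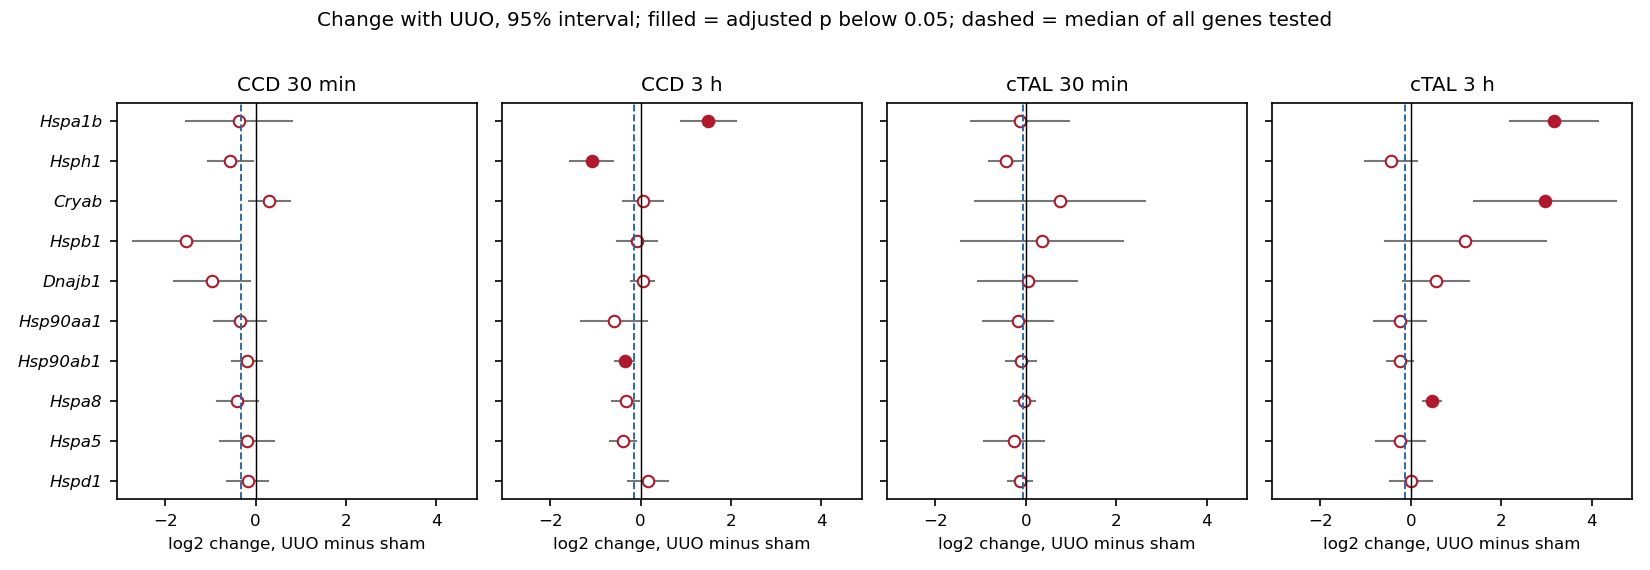
Log2 change of each member, UUO over sham, with its 95% interval, for each segment and time. Filled points were called, and the dashed line is the median of all genes tested. At 3 h Hspa1b, at 1.49 in CCD and 3.17 in cTAL, stands farthest to the right of that line in both segments.

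Hspa1b encodes the stress-inducible cytosolic HSP70. In CCD at 3 h its level was 37.4, 39.0, 50.8 and 38.9 TPM in UUO replicates 1 to 4, against 15.0, 17.6, 7.25 and 19.995 TPM in sham. The arms did not overlap, and the lowest UUO value was above the highest sham value. The log2 change was 1.49 ± 0.27 (SE), with a 95% interval of 0.89 to 2.10 and an adjusted p of 0.0115. The cTAL replicates at 3 h held 15.5, 34.0, 29.98 and 29.3 TPM in UUO and 1.36, 6.27, 0.93 and 1.48 TPM in sham. Again no sham replicate reached the lowest UUO replicate. This change was the larger in size, at 3.17 ± 0.44 (SE), with an interval of 2.20 to 4.14 and an adjusted p of 0.00297. Both calls held when any single replicate was left out, with log2 changes of 1.21 to 1.65 in CCD and 2.96 to 3.60 in cTAL.

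At 30 min the Hspa1b arms overlapped widely. CCD replicates held 12.4, 9.59, 32.7 and 36.1 TPM in UUO, against 10.7, 27.5, 45.2 and 28.1 TPM in sham. The log2 change there was -0.37 ± 0.52 (SE, limma adjusted p = 0.65). In cTAL the levels were 1.87, 2.07, 3.06 and 10.3 TPM in UUO and 3.35, 1.74, 5.63 and 6.18 TPM in sham. Replicate 4 was the highest of both cTAL arms, and the log2 change was -0.12 ± 0.48 (SE, adjusted p = 1).

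The rat genome holds a near-identical HSP70 locus, and reads could be split between the pair, so the level at either locus alone is uncertain. The member locus is ENSRNOG00000050647, named Hspa1b in the table for 30 min and LOC108348108 in the table for 3 h. The copy is ENSRNOG00000045654, named LOC108348108 at 30 min and Hspa1a at 3 h. The copy at 3 h held 80.5, 70.3, 59.8 and 60.6 TPM in CCD UUO, against 28.0, 47.2, 24.2 and 51.8 TPM in CCD sham. In cTAL it held 6.65, 90.1, 62.5 and 54.5 TPM in UUO, against 3.54, 10.6, 4.20 and 1.49 TPM in sham, so that UUO replicate 1 lay below sham replicate 2. Both changes were called, at 0.88 ± 0.24 (SE, adjusted p = 0.0402) in CCD and 2.95 ± 0.74 (SE, adjusted p = 0.0315) in cTAL. Summed over the pair of loci, the HSP70 level in CCD was 99.5 to 118 TPM in UUO and 31.4 to 71.8 TPM in sham. The summed level in cTAL was 22.2 to 124 TPM in UUO and 2.97 to 16.9 TPM in sham. With the sum in place of Hspa1b, the changes were 1.11 ± 0.23 (SE, adjusted p = 0.0167) in CCD and 3.28 ± 0.57 (SE, adjusted p = 0.00859) in cTAL, both called. At 30 min the copy held 0.17, 4.77, 65.9 and 57.1 TPM in CCD UUO, against 13.9, 41.95, 90.1 and 67.8 TPM in CCD sham. Its change there was -1.95 ± 1.24 (SE, adjusted p = 0.399), and in cTAL at 30 min it was -0.21 ± 0.70 (SE), neither called. The ratio of the copy to Hspa1b ran between 0.0137 and 2.015 in CCD UUO at 30 min.

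Hspa8 encodes Hsc70, the constitutive cytosolic HSP70, and was among the most abundant members everywhere. The cTAL replicates at 3 h held 564, 564, 522 and 619 TPM in UUO, against 431, 392, 393 and 419 TPM in sham. Every UUO replicate was above every sham replicate. The log2 change was small and even, 0.47 ± 0.09 (SE), with an interval of 0.26 to 0.68 and an adjusted p of 0.0151, and 0.62 ± 0.12 (SE, adjusted p = 0.0145) after median-of-ratios rescaling. Leaving out cTAL sham replicate 2 ended the call, at 0.45 and an adjusted p of 0.0522.

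For Hspa8 in CCD the change at 3 h was negative and not called. The replicates held 327, 307, 279 and 423 TPM in UUO, against 390, 373, 411 and 481 TPM in sham. Only UUO replicate 4 lay within the sham range. The change was -0.33 ± 0.13 (SE, adjusted p = 0.116). That replicate's library 2, with 18235 TPM of Umod, held 536 TPM of Hspa8, and its library 1 held 310 TPM. Without the 3 libraries above 5000 TPM of Umod the change was -0.43 ± 0.10 (SE, adjusted p = 0.0258), and without UUO replicate 4 it was -0.44 (adjusted p = 0.0467). At 30 min Hspa8 held 279, 189, 306 and 266 TPM in CCD UUO and 269, 328, 342 and 383 TPM in CCD sham, which overlapped. In cTAL at 30 min it held 278 to 324 TPM in UUO and 268 to 325 TPM in sham, and the 95% interval of the log2 change was -0.26 to 0.20.

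Hspa1b was also set against Hspa8 in the same replicate. The 3 h ratio of Hspa1b to Hspa8 was 0.0918 to 0.182 in CCD UUO and 0.0176 to 0.0472 in CCD sham. In cTAL it was 0.0276 to 0.0602 in UUO and 0.00236 to 0.0160 in sham. For Hspa1b alone the arms did not overlap in either segment at that time. At 30 min they did, with medians of 0.0788 in CCD UUO and 0.0786 in CCD sham, and of 0.00922 in cTAL UUO and 0.0141 in cTAL sham. Hspa8 transcripts still outnumbered those of Hspa1b in every replicate at 3 h. With the near-identical copy added to Hspa1b, the 3 h ratio was 0.235 to 0.396 in CCD UUO and 0.0764 to 0.174 in CCD sham. In cTAL the summed ratio was 0.039 to 0.22 in UUO and 0.00709 to 0.043 in sham, so those arms overlapped.

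Hsph1 encodes HSP105, an HSP110 protein that acts as nucleotide exchange factor for HSP70. In CCD at 3 h it held 17.3, 11.7, 10.8 and 9.28 TPM in UUO, against 23.4, 21.8, 29.6 and 31.4 TPM in sham. All 4 UUO replicates lay below the sham replicates. The log2 change was -1.08 ± 0.21 (SE), a fall of 2.12-fold with an interval of -1.55 to -0.61 and an adjusted p of 0.0142. The call held without any single replicate, at -1.25 to -0.96, and was lost with library 2 of each CCD replicate alone, at -1.002 (adjusted p = 0.0898). Hsph1 in cTAL at 3 h held 16.2, 13.5, 7.64 and 10.6 TPM in UUO, against 15.1, 13.6, 16.7 and 19.3 TPM in sham. Those arms overlapped, and the change was -0.44 ± 0.26 (SE, adjusted p = 0.303).

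The changes of Hsph1 at 30 min were negative and not called. In CCD the replicates held 23.2, 26.5, 40.3 and 31.4 TPM in UUO, against 39.9, 49.3, 39.3 and 42.0 TPM in sham. UUO replicate 3 overlapped the sham range, and the change was -0.56 ± 0.22 (SE, limma unadjusted p = 0.0318, adjusted p = 0.292). In cTAL they held 20.3, 25.9, 29.2 and 29.9 TPM in UUO, against 30.9, 41.9, 34.4 and 36.5 TPM in sham. No UUO replicate reached the lowest sham replicate, but at -0.44 ± 0.16 (SE, limma unadjusted p = 0.0238) the adjusted p was 1. Set against Hspa8, the ratio of Hsph1 at 3 h was 0.0219 to 0.0531 in CCD UUO and 0.0585 to 0.0721 in CCD sham. In cTAL this ratio was 0.0147 to 0.0288 in UUO and 0.0347 to 0.0462 in sham. The ratios did not overlap in either segment, while Hsph1 itself was called in CCD and not in cTAL. In cTAL at 3 h the Hsph1 arms overlapped, and Hspa8, by which it was divided, was called higher in UUO.

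Dnajb1, the DnaJ protein that supplies clients to HSP70, did not pass the test in any of the 4 comparisons. At 3 h in CCD it held 68.4, 62.3, 69.5 and 70.6 TPM in UUO, against 58.6, 62.2, 64.4 and 78.0 TPM in sham. The log2 change was 0.05 ± 0.12 (SE, adjusted p = 0.822), with an interval of -0.21 to 0.30. The cTAL replicates held 33.1, 67.9, 73.4 and 62.4 TPM in UUO and 52.0, 44.9, 43.3 and 20.8 TPM in sham. UUO replicate 1 lay within the sham range and the other UUO replicates above it, with a change of 0.56 ± 0.32 (SE, adjusted p = 0.292). At 30 min CCD held 16.9, 24.0, 52.9 and 54.3 TPM in UUO and 48.3, 69.1, 66.2 and 70.5 TPM in sham. Replicates 1 and 2 of UUO were the low ones, and the change was -0.96 ± 0.38 (SE, limma unadjusted p = 0.03, adjusted p = 0.292). For cTAL at 30 min the change was 0.04 ± 0.48 (SE, adjusted p = 1).

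Cryab encodes alpha B-crystallin, a small heat shock protein that is abundant in lens, muscle and renal medulla. Its level in cTAL at 3 h was 187, 183, 185 and 197 TPM in UUO, against 59.2, 4.4, 76.1 and 12.8 TPM in sham. The UUO replicates were close together and above all sham replicates, whose values were widely spread. The log2 change was 2.96 ± 0.71 (SE), or 7.78-fold, with an interval of 1.39 to 4.53 and an adjusted p of 0.0275. The call was lost in 4 of 8 fits that each left out 1 replicate. Without UUO replicate 2, 3 or 4 the adjusted p was 0.0609, 0.0565 and 0.0647, at log2 changes of 2.97, 2.97 and 2.94. Without sham replicate 4 it was 0.0623, at 2.69. Over the 8 fits the change ran between 2.24 and 3.52.

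In CCD Cryab was not called at 3 h. The level was 597, 898, 922 and 669 TPM in CCD UUO, against 812, 981, 710 and 525 TPM in CCD sham. The arms lay over each other, with a change of 0.04 ± 0.20 (SE, adjusted p = 0.907) and an interval of -0.40 to 0.49. At 30 min CCD held 629, 455, 342 and 349 TPM in UUO and 280, 419, 318 and 369 TPM in sham, a change of 0.30 ± 0.20 (SE, adjusted p = 0.411). The cTAL levels at 30 min were 49.6, 6.24, 25.1 and 20.2 TPM in UUO and 4.46, 43.8, 23.3 and 3.11 TPM in sham. They spread over the same range in both arms, and the change was 0.76 ± 0.83 (SE, adjusted p = 1).

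The Cryab level in cTAL was set beside Aqp2, the water channel gene of principal cells. Aqp2 in cTAL at 3 h held 51.0, 22.3, 10.4 and 16.9 TPM in UUO, against 361, 0.34, 4.34 and 0.41 TPM in sham. The highest Aqp2 was in sham replicate 1, which had 59.2 TPM of Cryab. The ratio of Cryab to Aqp2 was 3.68 to 17.8 in cTAL UUO and 0.164 to 31.3 in cTAL sham, and in the CCD libraries it was 0.102 to 0.304 in UUO and 0.0440 to 0.0978 in sham. All 4 cTAL UUO replicates and 3 of the 4 cTAL sham replicates, at 12.9, 17.5 and 31.3, lay above the CCD libraries in this ratio. The sham ratios of 12.9 and 31.3 divide by Aqp2 levels near 0, at 0.34 and 0.41 TPM. Aqp2 also differed between arms in CCD, at 1965 to 6461 TPM in UUO against 8661 to 12216 TPM in sham. The part of CCD cells in the cTAL level of Cryab was not tested. The sums of principal cell genes in cTAL, 52.4 to 160 TPM in UUO and 91.2 to 618 TPM in sham, overlapped between arms.

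**Figure D3:**
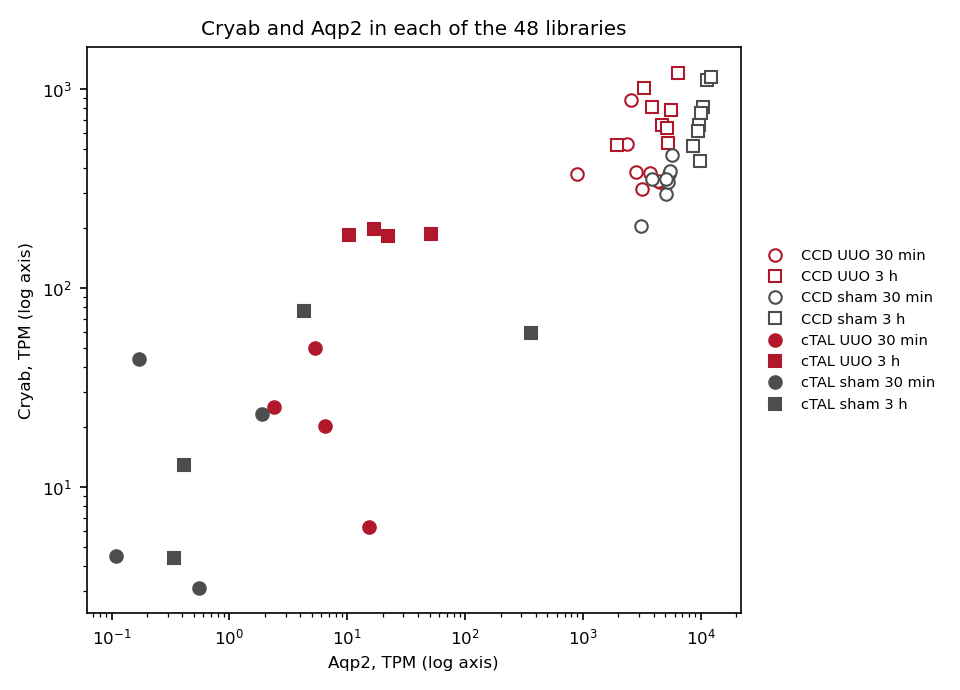
Cryab against Aqp2, both in TPM on log axes, in each of the 48 libraries. Open symbols are CCD and filled symbols cTAL, circles are 30 min and squares 3 h, and the times come from separate tables. At 3 h the 4 cTAL UUO libraries sit together at 183 to 197 TPM of Cryab, above the 4 cTAL sham libraries at 4.4 to 76.1 TPM.

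Hspb1 encodes HSP27, a small heat shock protein that also binds actin. In CCD at 30 min it held 7.01, 15.6, 26.5 and 45.9 TPM in UUO, against 46.5, 70.7, 70.8 and 60.8 TPM in sham. The arms were close but did not overlap, with 45.9 TPM as the highest UUO value and 46.5 TPM as the lowest sham value. The log2 change of -1.53 ± 0.53 (SE, interval -2.70 to -0.35) was the largest of the 10 members at 30 min in either segment, yet it was not called (limma unadjusted p = 0.016, adjusted p = 0.275). With library 1 of each CCD replicate alone it was called, at -1.97 ± 0.40 (SE, adjusted p = 0.0161). In that fit 956 genes were called, 949 of them lower, against 3 with both libraries and 1 with library 2 alone. The share of mitochondrially encoded transcripts in CCD at 30 min had a median of 22.6% in UUO and 17.8% in sham, and its part in these values was not tested.

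The Hspb1 arms overlapped in CCD at 3 h, at 38.4, 62.3, 43.3 and 51.5 TPM in UUO against 59.7, 58.3, 64.4 and 36.7 TPM in sham. The change was -0.08 ± 0.20 (SE, adjusted p = 0.813). In cTAL Hspb1 varied more between replicates of the same arm than between arms. At 3 h it held 8.26, 27.9, 59.7 and 35.6 TPM in cTAL UUO, against 36.8, 16.5, 12.3 and 1.37 TPM in cTAL sham. The change was 1.21 ± 0.80 (SE, adjusted p = 0.364). At 30 min it held 2.24, 4.06, 2.48 and 35.7 TPM in UUO and 1.92, 2.18, 5.86 and 11.3 TPM in sham, where replicate 4 was the highest of each arm.

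The cytosolic HSP90 genes were Hsp90ab1, the constitutive form, and Hsp90aa1, the more inducible form. Hsp90ab1 in CCD at 3 h held 333, 314, 332 and 364 TPM in UUO, against 400, 387, 478 and 455 TPM in sham. All UUO replicates were below all sham replicates, and the change of -0.35 ± 0.10 (SE, adjusted p = 0.0403) was called, a fall of 1.28-fold. This call was a weak one. It was lost in 7 of 8 fits without 1 replicate, at -0.40 to -0.30 with adjusted p up to 0.105, and after median-of-ratios rescaling, at -0.20 (adjusted p = 0.282). Without the libraries above 5000 TPM of Umod it was -0.33 (adjusted p = 0.111). Hsp90ab1 in cTAL at 3 h held 314, 374, 303 and 368 TPM in UUO and 326, 444, 431 and 404 TPM in sham, a change of -0.24 ± 0.13 (SE, adjusted p = 0.266).

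At 30 min Hsp90ab1 held 374 to 526 TPM in CCD UUO and 488 to 566 TPM in CCD sham, and 370 to 534 TPM in cTAL UUO and 368 to 511 TPM in cTAL sham. Both pairs of arms overlapped. Hsp90aa1 in CCD at 3 h held 32.2, 33.6, 37.3 and 12.0 TPM in UUO, against 38.1, 37.0, 51.6 and 36.9 TPM in sham. UUO replicate 4 stood far below the others, and the change was -0.59 ± 0.32 (SE, adjusted p = 0.254). Its cTAL level at 3 h was 19.5 to 40.3 TPM in UUO and 23.4 to 36.1 TPM in sham. None of the 4 comparisons called Hsp90aa1.

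Hspa5 encodes BiP, the HSP70 of the ER. In CCD at 3 h it held 284, 280, 304 and 241 TPM in UUO, against 323, 425, 410 and 305 TPM in sham. The arms did not overlap, although UUO replicate 3 and sham replicate 4 differed by little, and the change of -0.39 ± 0.13 (SE, limma unadjusted p = 0.013, adjusted p = 0.0722) was not called. In cTAL at 3 h it held 298, 234, 178 and 230 TPM in UUO and 169, 288, 281 and 397 TPM in sham. Those values overlapped, with a change of -0.23 ± 0.24 (SE, adjusted p = 0.585). At 30 min the change was -0.19 ± 0.27 (SE, adjusted p = 0.64) in CCD and -0.26 ± 0.29 (SE, adjusted p = 1) in cTAL. Library 2 of CCD UUO replicate 2 at 30 min held 141 TPM of Hspa5, where library 1 held 677 TPM, and without library 2 the CCD change was 0.09.

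Hspd1 encodes HSP60, the chaperonin of the mitochondrion. It was not called in any of the 4 comparisons. At 3 h CCD held 224, 147, 133 and 165 TPM in UUO, against 115, 139, 198 and 143 TPM in sham. In cTAL the level was 120, 248, 175 and 232 TPM in UUO and 176, 183, 201 and 181 TPM in sham. UUO replicates spread on both sides of the sham values, and the log2 changes were 0.17 ± 0.20 (SE, adjusted p = 0.607) in CCD and 0.01 ± 0.21 (SE, adjusted p = 0.977) in cTAL. At 30 min they were -0.17 ± 0.20 (SE, adjusted p = 0.586) in CCD and -0.13 ± 0.12 (SE, adjusted p = 1) in cTAL.

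The direction of the small changes at 30 min depended on the scaling. In CCD at 30 min, 9 of 10 members had a negative change as deposited, Cryab being the exception. After median-of-ratios rescaling 5 of 10 were negative, with Hsp90aa1, Hsp90ab1, Hspa5 and Hspd1 turned. Quantile normalization left 8 of 10 negative and turned Hspa1b alone. In cTAL at 30 min the rescaling turned Hspa8 and quantile normalization turned 0 of 10. Without library 2 of CCD UUO replicate 2, Hspa5 at 0.09 and Hspd1 at 0.03 turned in CCD, Hspb1 stood at -1.58, and Hsph1, Hspa8 and Hsp90ab1 stood at -0.33, -0.21 and -0.08. None was called in that fit. With all libraries kept, the CCD changes at 30 min were also set relative to the median of all genes. Hspb1 then stood at -1.22, Dnajb1 at -0.65, Hsph1 at -0.25 and Cryab at 0.62. At 3 h the called members kept their sign under both scalings, and both turned the sign of Hspb1 in CCD, which was not called. Relative to the median of all genes, Hspa1b stood at 1.63 in CCD and 3.29 in cTAL, Cryab at 3.08 and Hspa8 at 0.59 in cTAL, and Hsph1 at -0.94 and Hsp90ab1 at -0.21 in CCD.

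Whether the response to UUO differed between segments was tested on the value in CCD minus that in cTAL of the same replicate number. No member was called at either time, where 0.704% of genes were called at 30 min and 0.46% at 3 h. Limma's unadjusted p was under 0.05 for 2 members at 30 min and 4 at 3 h. Over all genes it was under 0.05 for 1803 of 12075 at 30 min and for 1635 of 11084 at 3 h. At 3 h the difference was -1.68 ± 0.40 (SE, limma unadjusted p = 0.00242, adjusted p = 0.101) for Hspa1b and -0.80 ± 0.18 (SE, unadjusted p = 0.00152, adjusted p = 0.0818) for Hspa8. For Cryab it was -2.92 ± 0.84 (SE, limma unadjusted p = 0.00699, adjusted p = 0.157), and for Hsph1 -0.64 ± 0.21 (SE, unadjusted p = 0.0135, adjusted p = 0.206). The larger rise of Hspa1b in cTAL and the opposite signs of Hspa8 therefore missed the adjusted threshold. At 30 min Hspb1 had the largest difference, -1.89 ± 0.59 (SE, adjusted p = 0.168), followed by Dnajb1 at -0.9997 ± 0.4383 (SE, adjusted p = 0.327). Both were called when UUO replicate 3 was left out, at -2.38 (adjusted p = 0.0305) and -1.43 (adjusted p = 0.0322). The 8 fits of this difference without 1 replicate called 0 to 773 genes, against 85 with all replicates.

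The change at 3 h was also set against the change at 30 min, each measured within its own table. In cTAL 2 of 10 members were called, both higher, where 2.38% of genes were called. Hspa1b changed by 3.30 ± 0.69 (SE, adjusted p = 0.0186) more at 3 h than at 30 min, and Hspa8 by 0.50 ± 0.13 (SE, adjusted p = 0.0485) more. The Hspa1b call held in all 16 fits without 1 replicate, at 3.08 to 3.74, and was lost when its near-identical locus was added, at 3.49 (adjusted p = 0.062). The Hspa8 call was lost in 13 of those 16 fits, where the values ran between 0.46 and 0.56 and the adjusted p up to 0.108. In CCD no member was called, where 1.62% of genes were. Limma's unadjusted p was under 0.05 for 3 members in CCD and for 1936 of 11696 genes. The genes called there split 160 higher to 30 lower, against 159 to 69 after median-of-ratios rescaling and 120 to 121 after quantile normalization. Hspa1b had the largest such difference in CCD, 1.87 ± 0.64 (SE, limma unadjusted p = 0.0097, adjusted p = 0.158). Hspb1 and Dnajb1 followed at 1.45 ± 0.61 (SE, adjusted p = 0.246) and 1.006 ± 0.42 (SE, adjusted p = 0.241).

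The segments differed in these genes in the sham replicates, which had no obstruction. CCD sham replicates held more Cryab, Hspb1 and Hspa1b than cTAL sham replicates. Cryab averaged 347 ± 60.4 TPM in CCD sham and 18.7 ± 19.1 TPM in cTAL sham at 30 min, a log2 difference of 4.76 ± 0.56 (SE, adjusted p = 0.000696). At 3 h it averaged 757 ± 191 TPM in CCD and 38.1 ± 34.9 TPM in cTAL, a difference of 4.89 ± 0.76 (SE, adjusted p = 0.00666). Hspb1 was higher in CCD by 3.38 ± 0.32 (SE, adjusted p = 0.000319) at 30 min and by 2.11 ± 0.52 (SE, adjusted p = 0.0266) at 3 h. Without the CCD libraries above 5000 TPM of Umod the difference at 3 h was 1.84 ± 0.57 (SE, adjusted p = 0.0594) and was not called. Hspa1b was higher in CCD by 2.39 ± 0.32 (SE, adjusted p = 0.00123) and 2.31 ± 0.32 (SE, adjusted p = 0.00508) at these times.

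The other sham differences were smaller. Dnajb1 was higher in CCD at 30 min, by 1.05 ± 0.21 (SE, adjusted p = 0.00618), and at 3 h stood at 0.76 ± 0.30 (SE, adjusted p = 0.0956). Hsph1 was called at 3 h, at 0.67 ± 0.13 (SE, adjusted p = 0.0133), but not after median-of-ratios rescaling, at 0.35 (adjusted p = 0.112). Hspd1 was lower in CCD at 30 min, averaging 209 ± 31.3 TPM there against 351 ± 53.4 TPM in cTAL, a difference of -0.76 ± 0.13 (SE, adjusted p = 0.00281). Thus 4 members were called higher and 1 lower in CCD at 30 min, where 41.6% of genes were higher and 13% lower. At 3 h 4 were called higher and 0 lower, against 27% and 9.97% of genes. The median of all genes was 0.30 in CCD over cTAL at both times. After median-of-ratios rescaling the calls split 3061 higher to 2797 lower at 30 min, against 4846 to 1517, and 1476 to 1634 at 3 h, against 2841 to 1049. Cryab and Hspa1b were called higher in CCD at both times under that scaling too, Hspb1 kept its call at 30 min and had an adjusted p of 0.0554 at 3 h, and Hspd1 was then called lower at 3 h as well, at -0.67 (adjusted p = 0.0246). At 3 h the calls of Hsph1 and Hspb1 were lost without sham replicate 2 or 3.

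Levels per length also gave an order within each group. In CCD at 3 h Cryab was first in both arms, with 772 ± 163 TPM in UUO and 757 ± 191 TPM in sham, and its replicates did not overlap those of the next gene. Hsp90ab1, Hspa8 and Hspa5 followed in both arms, with overlapping replicates between neighbours, then Hspd1 and Dnajb1, each apart from its neighbours above. At the low end the order differed between arms. Hsph1 was last in CCD UUO at 12.3 ± 3.53 TPM, and Hspa1b was last in CCD sham at 15.0 ± 5.54 TPM. In cTAL at 3 h Hspa8 came first in UUO at 567 ± 39.8 TPM, apart from Hsp90ab1 at 340 ± 36.3 TPM, while in sham these genes overlapped at 409 ± 19.1 and 401 ± 53.1 TPM. Cryab was level with Hspd1 and below it in mean in cTAL UUO, at 188 ± 6.48 against 194 ± 58.1 TPM, and in cTAL sham it overlapped Dnajb1 and Hsp90aa1. Hspa1b was last in cTAL sham, at 2.51 ± 2.52 TPM and apart from Hsph1, and overlapped Hspb1 and Hsp90aa1 in cTAL UUO.

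At 30 min Hsp90ab1 was first in all 4 groups. In CCD sham it overlapped Hspa5, which overlapped Cryab and Hspa8 in turn, and in cTAL UUO it lay apart from Hspd1. Hspa1b was last in all 4 groups at that time, overlapping its neighbour each time. Together the 10 members made up 0.196% to 0.218% of all transcripts in CCD UUO and 0.211% to 0.250% in CCD sham at 3 h. In cTAL their share was 0.156% to 0.180% in UUO and 0.130% to 0.149% in sham, with no overlap. The sum thus lay higher after UUO in cTAL, while in CCD the arms overlapped at the edge, and no test was made on the sum.

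Beyond the members, 92 further chaperone and co-chaperone genes in 8 lists were counted. At 30 min none was called, 0 of 85 measured in CCD and 0 of 86 in cTAL, with median log2 changes of -0.32 and -0.12. In CCD the smallest p-values belonged to the steroid receptor co-chaperone Fkbp4 and the DnaJ gene Dnaja4. Fkbp4 averaged 22.9 ± 14.8 TPM after UUO, against 67.0 ± 11.4 TPM in sham replicates, a change of -1.41 ± 0.40 (SE, adjusted p = 0.243), and Dnaja4 averaged 2.25 ± 0.90 TPM after UUO, against 7.23 ± 1.59 TPM in sham (adjusted p = 0.235). In cTAL they belonged to the small heat shock gene Hspb8, with 11.6 ± 2.72 TPM after UUO against 21.3 ± 5.23 TPM in sham, and to Hspa14, with 44.7 TPM after UUO against 56.6 TPM in sham (adjusted p = 1 for each).

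At 3 h in CCD 5 of 85 were called higher and 4 lower, where 5% of all genes were higher and 8.04% lower. The median was -0.18. Bag3, a nucleotide exchange factor that links HSP70 to autophagy, averaged 13.6 ± 3.14 TPM in UUO and 4.79 ± 0.38 TPM in sham, a change of 1.29 ± 0.20 (SE, adjusted p = 0.00762). Fkbp5, an HSP90 co-chaperone induced by glucocorticoid receptors, averaged 5.88 ± 1.18 TPM in UUO and 2.76 ± 0.46 TPM in sham (0.88, adjusted p = 0.0219). The DnaJ genes Dnajb5, at 0.79 (adjusted p = 0.026), and Dnajc21, at 0.77 (adjusted p = 0.0219), rose as well, and the remaining rise was the HSP70 copy described above. Stip1, the adaptor that passes clients between HSP70 and HSP90, averaged 63.2 ± 8.70 TPM in UUO and 99.8 ± 4.64 TPM in sham and fell by 0.66 (adjusted p = 0.0104). The other 3 falls were 1 more HSP90 co-chaperone, 1 chaperonin or prefoldin and 1 ER chaperone.

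In cTAL at 3 h also 5 of 85 were called higher and 4 lower, where 4.06% of all genes were higher and 7.64% lower. The median was -0.07. In both segments the share called higher was thus close to that of all genes. Hspa2, another HSP70, averaged 14.9 ± 8.68 TPM in UUO and 3.01 ± 1.27 TPM in sham (1.91, adjusted p = 0.019). Fkbp5 averaged 6.28 ± 2.04 TPM in UUO and 1.06 ± 0.46 TPM in sham (1.81, adjusted p = 0.0085). Dnajb4, a DnaJ partner of HSP70, averaged 26.1 ± 6.73 TPM in UUO and 7.83 ± 2.55 TPM in sham (1.63, adjusted p = 0.00874). Cdc37l1, a relative of the kinase co-chaperone Cdc37, rose by 1.20 (adjusted p = 0.0284) although its arms overlapped. Pdia4, a protein disulfide isomerase of the ER, averaged 49.3 ± 5.35 TPM in UUO and 109 ± 13.1 TPM in sham and fell by 1.12 (adjusted p = 0.00274). Bag3 had a change of 0.80 in cTAL (adjusted p = 0.166).

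List by list at 3 h, the 3 measured heat shock factor genes had no call in either segment. In CCD the DnaJ list had 2 rises of 16, the HSP90 co-chaperones 1 rise and 2 falls of 15, the other HSP70 genes 1 rise of 7 and the exchange factors 1 rise of 8. The chaperonins had 1 fall of 15, the ER chaperones 1 fall of 17 and the other small heat shock genes no call of 4. In cTAL the other HSP70 genes had 2 rises of 7, the HSP90 co-chaperones 2 rises and 2 falls of 15, the DnaJ list 1 rise of 16, the exchange factors 1 fall of 8 and the ER chaperones 1 fall of 17. The chaperonins and the other small heat shock genes had none there. The difference between segments was called for 0 of 87 at 30 min and 0 of 85 at 3 h. The difference between times was called for Bag3, at 1.97 (adjusted p = 0.035), and Fkbp5, at 1.29 (adjusted p = 0.0283), in CCD, and for Fkbp5, at 2.32 (adjusted p = 0.0128), in cTAL.

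**Figure D4:**
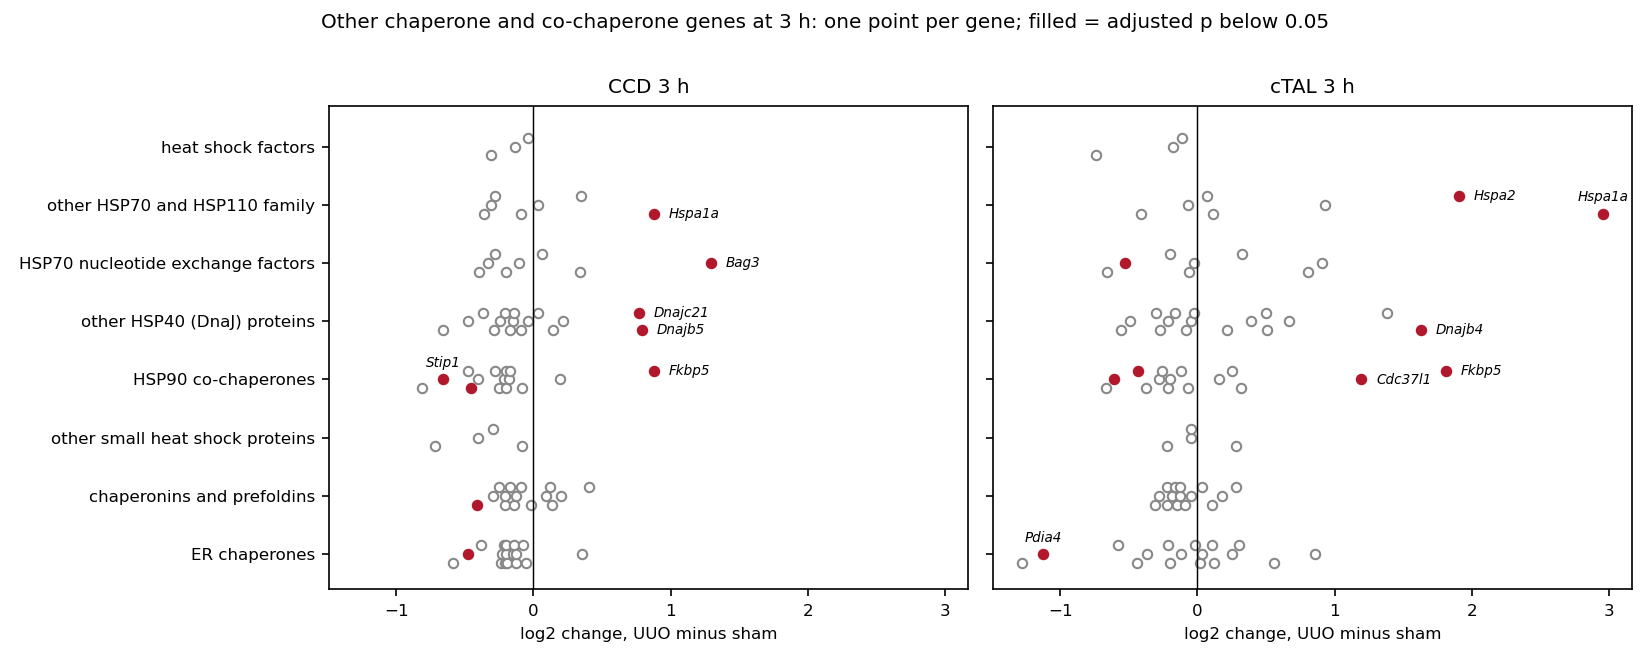
Log2 change at 3 h, UUO over sham, of each measured gene of the 8 other chaperone lists, in CCD and in cTAL. Filled points were called, and the labelled genes are the ones with the largest called changes. In each panel 5 filled points lie right of 0 and 4 left of it.

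In sham replicates, 43 of 85 of these genes were higher in CCD than in cTAL and 6 were lower at 30 min, and 25 of 86 were higher and 5 lower at 3 h. Those counts stand against the 41.6% and 13%, and the 27% and 9.97%, of all genes given above. The largest differences were 2.57 for Fkbp4 and 2.48 for Hspa2 at 30 min. At 3 h they were 2.83 for the HSP70 copy, 2.78 for Hspa2 and 2.64 for Hspb2, a small heat shock gene that neighbours Cryab, while Hspb6, another small heat shock gene, was lower in CCD, at -2.04.

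The members did not vary alike. On log2(TPM + 1), the SD within groups over the 32 replicates was 1.10 for Hspb1, 0.99 for Cryab, 0.73 for Hspa1b and 0.59 for Dnajb1. These lie at percentiles 97.5, 96.7, 91.6 and 84.5 among the 10530 genes tested in CCD at 3 h. Hsp90ab1 and Hspa8 were the steadiest, at 0.18 and 0.20 and percentiles 7.97 and 10.3. Between the libraries of a CCD replicate, the median absolute log2 difference over 16 pairs ran between 0.11 for Hspa8 and 0.47 for Hsp90aa1.

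After each group's mean was taken out, Hspb1, Dnajb1 and Hspa1b varied together across replicates. Pearson's r over the 32 replicates was 0.901 for Hspb1 with Dnajb1 (Spearman 0.837), and was 0.791 within the 16 CCD and 0.947 within the 16 cTAL replicates. Hspa1b with Dnajb1 had 0.729 (Spearman 0.739), at 0.779 in CCD and 0.718 in cTAL, and Hspa1b with Hspb1 had 0.604. The copy of Hspa1b had 0.822 with Hspa1b and 0.874 with Dnajb1. Hsph1 was outside this set over the 32 replicates, with 0.0859 against Hspa1b and 0.169 against Dnajb1, but the segments differed. Within CCD it had 0.332 with Hspa1b, 0.628 with Dnajb1 and 0.255 with Hspb1, and within cTAL -0.172, -0.154 and -0.315. Of the 45 pairs of members, 5 exceeded 0.5, 16 were negative, 0 were below -0.5 and the median was 0.151. The other 2 of those 5 pairs were Hsp90ab1 with Hspd1, at 0.539, and Hsp90ab1 with Hspa8, at 0.506. Genes of a replicate share its library and its total, so these values are a description of the libraries. Pairs of other genes were not counted, so the 5 of 45 has no background to stand against.

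**Figure D5:**
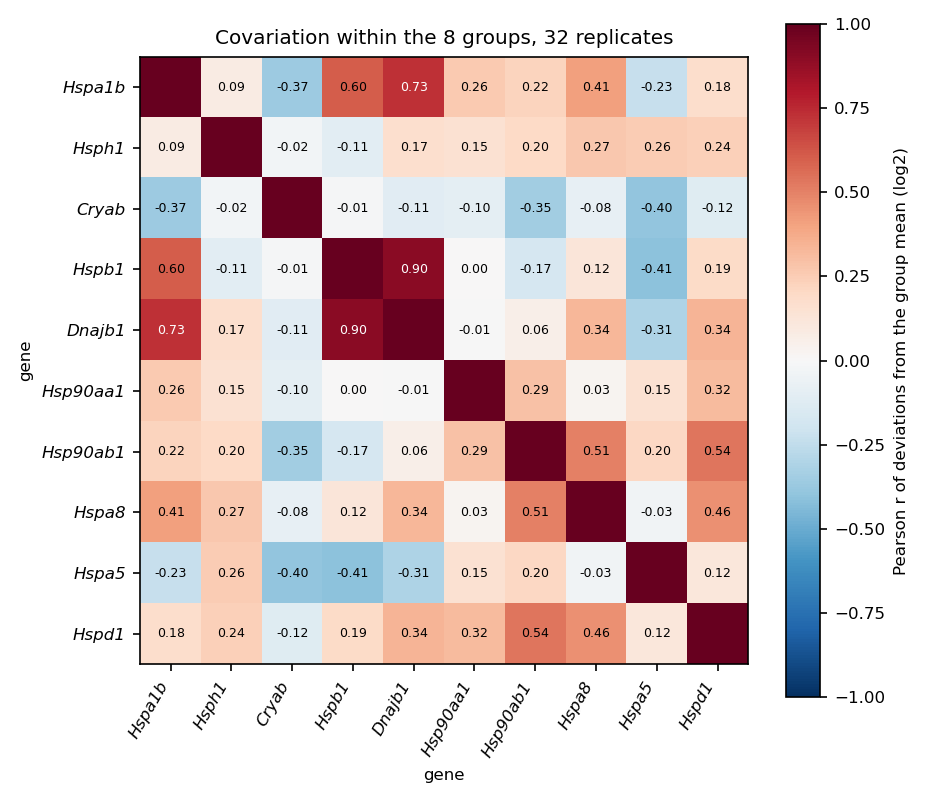
Pearson's r between each pair of the 10 members over 32 replicates, on log2(TPM + 1) with each group's mean removed. Hspb1 and Dnajb1 have the highest value, 0.901, and Hspa1b joins them at 0.604 and 0.729.

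The genes most like Hspa1b at 3 h were found by Pearson's r over the 16 CCD and cTAL replicates, centred within segment, among 9469 genes. They were Arrdc4 at 0.952, Zfp36 at 0.948, Pim3 at 0.948, Csrnp1 at 0.947 and Rcan1 at 0.945. Those most like Hsph1 were Atp6v0d1 at 0.907, Ndrg3 at 0.9, Dctn5 at 0.895, Esd at 0.894 and RGD1359158 at 0.892. Both arms enter these values, so a gene that differs between UUO and sham in both segments scores high by that alone.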

How the data were processed

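The members and the chaperone lists were chosen with earlier results of these data known. The labels' protocols name SMARTer V4 for the cDNA and Nextera XT for the libraries. No source used here says that strand was kept, so antisense reads cannot be separated. The submitters' processing notes name STAR 2.7.3, RSEM 1.3.3 and the build Rnor_6.0. The authors deposited TPM per gene, with a table for each time, and levels were not compared between tables. Of the identifiers, 5174 are named differently in them, so genes were matched by identifier. Values were analysed as log2(TPM + 1), which understates changes of low genes, and the 2 CCD libraries of a replicate were averaged on that scale. Genes that reached 1 TPM in 4 or more of the 8 replicates were compared by limma (version 3.58.1, under R 4.3.3 with the data.table package, version 1.17.8) in 10 comparisons, with Benjamini-Hochberg adjustment over all genes tested and calls under 0.05. Tests of a difference between segments or times kept genes that passed in either segment or at either time. The sham segments were compared on CCD minus cTAL within each replicate number, which gave 4 differences. The script was tested on simulated data. Which libraries came from the same animal is not given beyond the replicate numbers, so p-values measure the spread between replicates as numbered. Replicate numbers deviated together in CCD at 30 min, with correlations of 0.12 to 0.23, where a replicate block changed no call. All 10 members were named, as were up to 6 called list genes per comparison with the largest change, or the 2 of lowest p where there was no call. Alternatives were a pseudocount of 0.1 TPM, no filter, rescaling, quantile normalization, each CCD library alone, a replicate block and leaving out each replicate. For the sham segments the alternative to pairing by number was no replicate block. The merged HSP70 loci and the removal of libraries that stood apart were added after seeing the data. Figures were drawn with matplotlib 3.10.9 in Python 3.11.15.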

Additional observations from a re-analysis of the deposited data

Results flagged for a closer look

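Of 80 sets of 4 replicates, each a member in a group, 5 held a replicate whose gap to its nearest neighbour took more of the group's range than Dixon's 95% limit allows. Gaps and ranges were taken on log2(TPM + 1), while the levels printed here are TPM. Chance flags about 1 in 20 such groups. Hspa8 in cTAL UUO at 30 min had its highest value, 323.8 TPM, in replicate 4. Hspa1b in CCD UUO at 3 h was highest in replicate 3, at 50.76 TPM. Hsp90aa1 was lowest in CCD UUO replicate 2 at 30 min, at 26.16 TPM, and in CCD UUO replicate 4 at 3 h, at 12.04 TPM. Dnajb1 in CCD sham at 30 min was lowest in replicate 1, at 48.26 TPM. The change in cTAL differed between 3 h and 30 min by a test of the difference itself for Hspa1b, at a log2 difference of 3.296, and for Hspa8, at 0.5039.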

How the results depend on the processing

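Among the fits of single members under other settings, 1508 kept their direction and their side of the threshold. Another 119 turned sign without a call in either fit, 49 lost a call, 14 gained one and 0 reversed a called change. The count of called members in CCD at 30 min was 1 with library 1 alone, against 0, and in CCD at 3 h it was 1 with library 2 alone, against 3. For the difference between times in cTAL it was 1, against 2, without the filter, under median-of-ratios rescaling, under quantile normalization and with the loci of Hspa1b summed, and the cause was not tested. Without the filter Cryab in cTAL at 3 h had an adjusted p of 0.0673. Leaving out each replicate gave 0 to 0 called members in CCD and in cTAL at 30 min, 2 to 4 in CCD and 2 to 3 in cTAL at 3 h, 0 to 2 and 0 to 0 for the difference between segments at 30 min and 3 h, 5 to 6 and 2 to 5 between sham segments, and 0 to 0 in CCD and 1 to 2 in cTAL between times.

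Genes called over the whole table moved by over 1.5 times in places. In CCD at 3 h 1373 genes were called, against 852 without the filter, 676 and 490 with library 1 or 2 alone, 770 with the replicate block and 458 to 1596 without 1 replicate. In cTAL at 3 h it was 1173, against 760 without the filter, 580 with the block and 439 to 988 without 1 replicate. The difference between segments at 30 min ran between 0 and 891 against 85, and at 3 h between 1 and 117 against 51, replicates left out included. The difference between times ran between 26 and 316 against 190 in CCD, and was 95 with the block and 164 to 314 without 1 replicate against 271 in cTAL. Between sham segments at 3 h it was 1724 to 2713 without 1 replicate, against 3890. Replicate numbers did not pair the samples outside CCD at 30 min, with correlations of -0.23 to 0.18. Under the replicate block 1 member was called for the difference between times in cTAL, against 2, and in CCD at 3 h Hsp90ab1 had an adjusted p of 0.069.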
